A study of Mus musculus with 12 samples.

Results

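The transcripts of 57 genes of the cell division cycle and of DNA replication were followed in mouse bone marrow-derived macrophages. The genes are the cyclins, their kinases and inhibitors, the E2F transcription factors, the licensing and fork proteins of replication, enzymes that supply deoxynucleotides, and proteins of the mitotic spindle and chromosomes. They were picked by name, and 57 of 57 were found among the 24445 named genes of the count tables. The cells were grown from marrow of C57BL/6 mice with medium from L929 fibroblasts, which secrete the growth factor M-CSF. The mice are labelled wild type (WT) or knockout (KO) for DOT1L in myeloid cells, with Lyz2 given as the myeloid gene, and DOT1L is the enzyme that methylates lysine 79 of histone H3. Cells of each genotype were left untreated or kept for 3 hours with Escherichia coli lipopolysaccharide (LPS) at 10 ng/mL, which gave 4 groups of 3 libraries that the labels call biological replicates. LPS is a component of the bacterial cell envelope that macrophages sense through the receptor TLR4.

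Macrophages grown in M-CSF still divide in culture. Growth factor signals raise the D cyclins, which bind the kinases CDK4 and CDK6 and start the inactivation of RB. The E2F factors then act on the genes of the E cyclins, CDK2, the MCM helicase and the nucleotide enzymes, which carry the cell into S phase. The genes of mitosis, among them Plk1, the Aurora kinases and the spindle kinesins, follow later in the cycle, many of them through promoters with a CCAAT box and a cell cycle homology region (CHR). CDK inhibitors such as p21, the product of Cdkn1a, hold the kinases back. In macrophages LPS is known to oppose the proliferative action of M-CSF.

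The libraries held between 8.64 M and 13.54 M reads in named genes. The macrophage markers Adgre1, Csf1r, Cd68, Itgam, Mertk, Fcgr1 and Lyz2 summed to more in WT than in KO, at 10200 to 13100 CPM (counts relative to the library size) in untreated WT against 7410 to 8320 in untreated KO, and at 12100 to 14900 against 8750 to 9880 with LPS. Lyz2, the myeloid gene named for the knockout, is part of this sum. The sum was not split by gene, so it does not compare the other macrophage markers between genotypes. The part of these markers in the genotype results was not tested. Of the erythroid markers 4 of 5 had no read in all 12 libraries, and the lists for B cells, T and NK cells, and mast cells each summed to under 1 CPM. The neutrophil list summed to 10.1 to 30.4 CPM. The targeted gene did not separate the genotypes, with Dot1l at 82.4 to 111.0 CPM in untreated WT and 85.7 to 97.7 CPM in untreated KO, and at 60.6 to 69.2 and 65.2 to 73.3 CPM with LPS, but which exons were removed is not given, so reads over the transcript do not check the labels. Replicate 2 of each group carried the Y-linked gene Ddx3y at 94.2 to 106.0 CPM, and the other libraries had no Ddx3y read, so the sexes were balanced over the 4 groups. WT replicate 1 stood apart from its mates in both conditions for the genes described here, and each genotype result is therefore given with and without it. In these bulk libraries, fewer dividing cells and less RNA per dividing cell cannot be told apart.

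The promoters of the members were read for the motifs of the 2 best known regulators of these genes, because the replication and the mitosis genes differed in which of them they held. RefSeq windows of GRCm38.p6, 250 bases before to 50 bases after the start, were at hand for 46 of the 57 members. An E2F match was any of TTTCCCGC, TTTCGCGC, TTTGCCGC or TTTGGCGC on either strand, and a CHR match was TTTGAA on either strand. E2F letters stood in 12 of the 46 windows (26.1%), against 2.6% of all 27025 genes with a window and 4.84% of the 9615 such genes tested for the LPS response. They were in 6 of 10 windows of replication genes and in 0 of 14 windows of mitosis genes. The CHR letters stood in 16 of 46 members (34.8%), against 20.2% of all genes and 14.4% of the tested ones, and here 9 of 14 mitosis genes held them. CCAAT was found in 34 of 46 members (73.9%) against 41.1% of all genes. All 16 members with CHR letters also held CCAAT, compared with 44.4% of the 5466 genes with CHR letters in all. E2F and CHR matches overlapped in 0 members, and E2F and CCAAT matches overlapped in 1, Mcm7. A match is a stretch of letters and was not tested as a binding site.

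The first set shows E2F letters in capitals, printed 5′ to 3′ on the strand of the gene, for Cdca7 and E2f7, both among the members with the largest falls after LPS, for the kinase gene Cdk2 and for the helicase gene Mcm5. GCGGGAAA is TTTCCCGC read on the other strand. In the Mcm5 line a further match, GCGCcaaa, which is TTTGGCGC on the other strand, overlaps the marked one and is capitalized only in part.
Cdca7 (chr2:72476108-72476186, plus strand, match ending 63 bases before the start): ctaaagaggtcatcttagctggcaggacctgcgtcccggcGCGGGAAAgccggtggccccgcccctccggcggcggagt
E2f7 (chr10:110745201-110745288, plus strand, match ending 190 bases before the start): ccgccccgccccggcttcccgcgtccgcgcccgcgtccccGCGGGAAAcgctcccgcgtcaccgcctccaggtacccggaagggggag
Cdk2 (chr10:128705144-128705231, minus strand, match ending 132 bases before the start): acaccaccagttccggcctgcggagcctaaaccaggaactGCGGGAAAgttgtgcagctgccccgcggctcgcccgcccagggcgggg
Mcm5 (chr8:75109316-75109403, plus strand, match ending 145 bases before the start): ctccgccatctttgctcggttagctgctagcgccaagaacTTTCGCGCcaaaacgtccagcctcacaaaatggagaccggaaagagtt

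The second set shows CHR letters in capitals for mitotic genes that fell after LPS, and for Cdk1, which holds E2F letters further upstream as well. TTCAAA is the same motif on the other strand. The CCAAT boxes of these promoters can be seen in lower case in several of the lines, as ccaat or attgg.
Cdc20 (chr4:118437344-118437401, minus strand, match ending 12 bases before the start): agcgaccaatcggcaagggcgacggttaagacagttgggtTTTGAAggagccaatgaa
Kif11 (chr19:37376323-37376381, plus strand, match ending 13 bases before the start): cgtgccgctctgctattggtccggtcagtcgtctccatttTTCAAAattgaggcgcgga
Top2a (chr11:99024200-99024252, minus strand, match ending 17 bases before the start): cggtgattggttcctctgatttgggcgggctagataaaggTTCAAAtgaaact
Cdk1 (chr10:69352913-69352967, minus strand, match ending 9 bases before the start): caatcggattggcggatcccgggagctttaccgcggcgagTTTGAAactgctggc
Cdk1 (chr10:69352996-69353083, minus strand, match ending 123 bases before the start): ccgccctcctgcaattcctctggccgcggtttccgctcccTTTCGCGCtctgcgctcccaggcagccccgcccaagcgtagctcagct

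The members differed widely in level, measured as RPKM, which divides the reads by transcript length and library size. The inhibitor gene Cdkn1a was highest, with a mean of 415.6 RPKM over the 12 libraries, followed by the replication clamp Pcna (136.5), the kinase gene Cdk4 (68.83), topoisomerase Top2a (59.82) and cyclin D1, Ccnd1 (52.55). Proliferation marker Mki67 stood at 49.29 RPKM and cyclin A2, Ccna2, at 43.72 RPKM. At the other end were the licensing factor gene Cdc6 (1.844), the repressive E2F gene E2f7 (1.984), and Cdca7 (2.831), a target of MYC and E2F. All levels below are CPM scaled by TMM, a method that matches libraries on the bulk of their genes, and values of replicates 1, 2 and 3 are given in that order. Changes are log2 fold changes with standard errors from edgeR's quasi-likelihood test, with 3 libraries per group, and a change is called at a Benjamini-Hochberg adjusted p under 0.05 over all genes tested.

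After LPS most of the members were lower in both genotypes, and a few were much higher. In WT, 35 of 57 members fell (61.4%) and 7 rose, where 29.8% of the 11984 genes tested fell and 27.6% rose. In KO, 34 fell (59.6%) and 8 rose, against 30.9% and 30.3% of all genes. The median change of the members was -0.57 in WT and -0.54 in KO, and that of all genes was -0.05 and -0.02. The libraries of the 2 responses are separate, but both responses were tested in 1 fit with a shared spread. Of the falls, 33 were common to them, which is 94.3% of those in WT and 97.1% of those in KO. Likeness of the responses was general, with a Pearson correlation of 0.982 over the members and 0.973 over all 11984 genes. Cdc25a and Rrm1 fell in WT alone by this threshold and Gins1 in KO alone. On the RPKM scale (reads per length and library size, without TMM) all 3 were called lower in both genotypes. The 7 genes that rose in WT (Ccnd2, Ccne1, Cdk6, Cdkn1a, Cenpe, Mad2l1 and Mcm10) also rose in KO, where Tpx2 was added. Treated and untreated libraries did not overlap for 28 falling members in WT (49.1%, against 30.2% of all genes) and 37 in KO (64.9%, against 37.3%), and for 7 rising ones in WT (12.3%, against 27.6%) and 9 in KO (15.8%, against 36.8%). Between genotypes the changes of a member differed by a median of 0.11 on the log2 scale, close to the 0.12 of all genes.

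**Figure D1:**
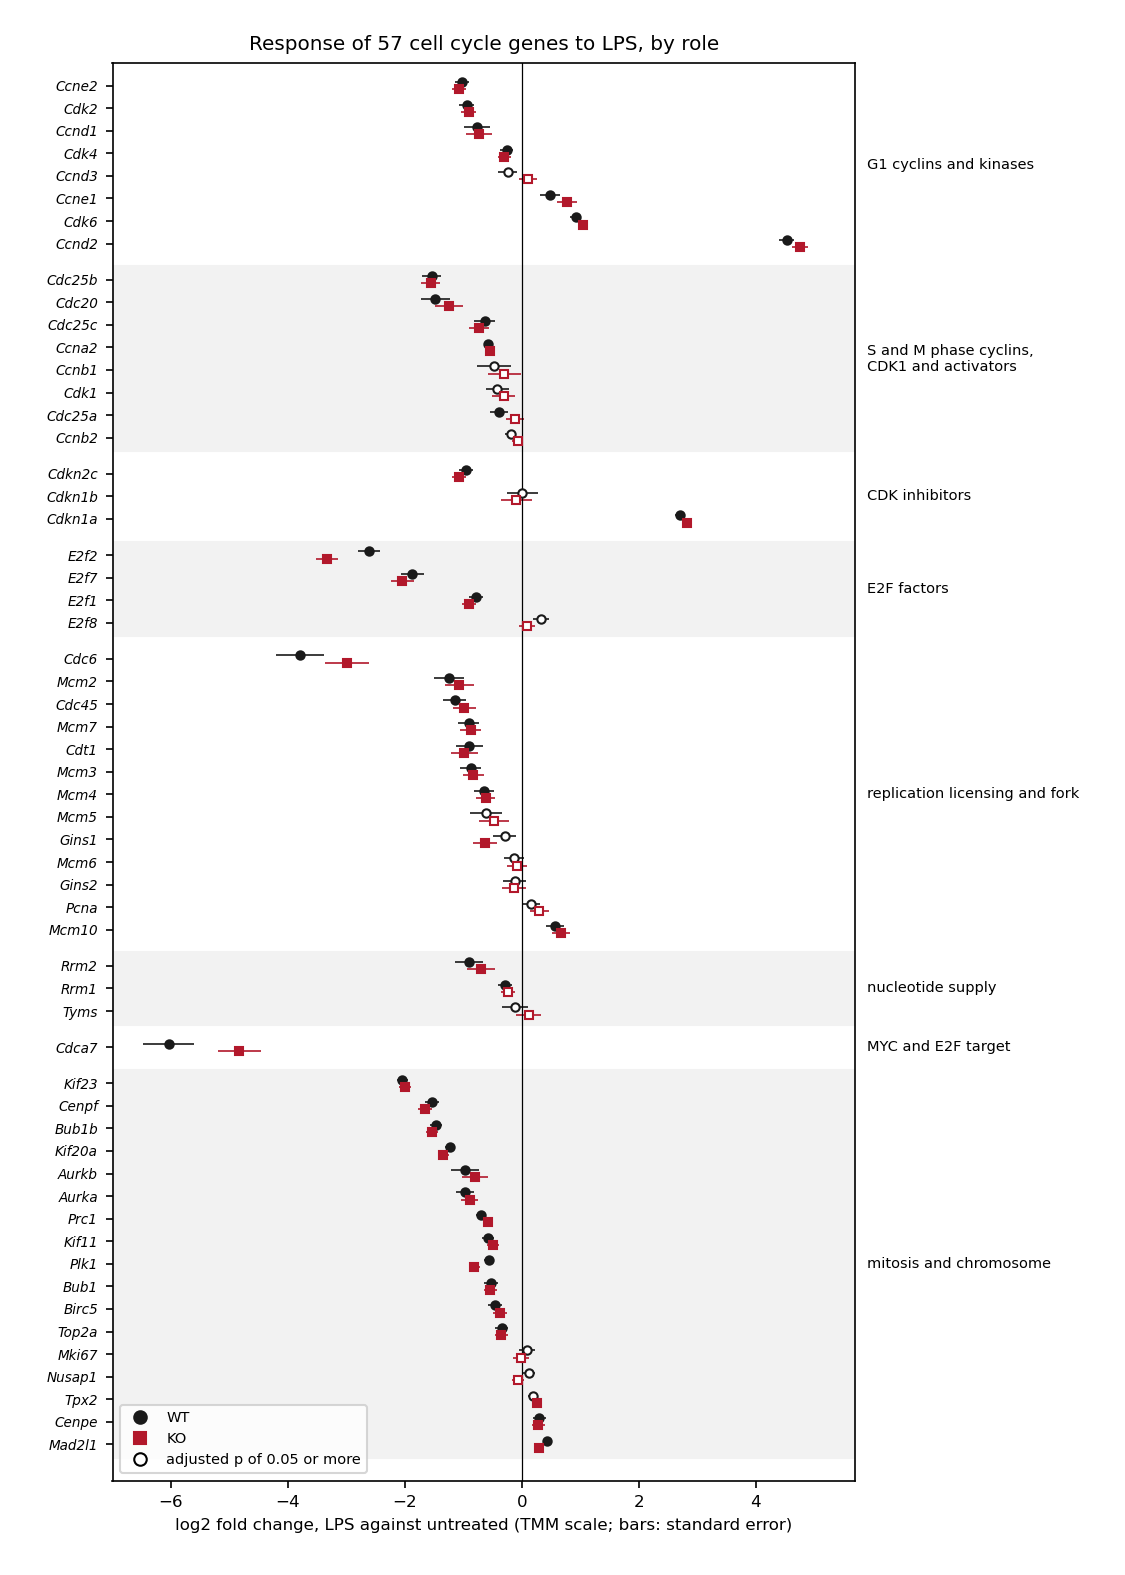
Log2 fold change of each of the 57 members after LPS (x axis, TMM scale, bars are standard errors) in WT (black circles) and KO (red squares), sorted by role, with open symbols for an adjusted p of 0.05 or more. Most symbols lie left of 0 in both genotypes, with Cdca7 furthest at -6.04 in WT, and Ccnd2 and Cdkn1a lie far to the right.

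The direction of the smaller changes depended on the scale. LPS libraries had TMM factors of 0.772 to 0.847 and untreated ones of 1.15 to 1.26, so the deposited RPKM values, which lack this step, put the median of all genes lower by 0.45 in WT and by 0.50 in KO. On the RPKM scale (limma on log2 of RPKM plus 0.5) the members' median was -1.08 in WT and -1.11 in KO, which is 0.58 and 0.59 below all genes, compared with 0.52 and 0.51 on the TMM scale. All 35 falls in WT and all 34 in KO were called there as well. Of the rises only Ccnd2, Cdk6 and Cdkn1a were called higher on both scales, and in WT the sign of Ccne1, Cdkn1b, E2f8, Pcna, Mki67, Mad2l1, Nusap1, Tpx2 and Cenpe turned to lower. In KO the sign turned for Ccnd3, E2f8, Pcna, Tyms, Mad2l1, Tpx2 and Cenpe. On that scale 47 members were called lower in WT and 50 in KO, while 63.1% of all genes in WT and 64.0% in KO were called lower, and 14.3% and 14.7% higher. In WT 11 members that the TMM fit did not call were called there, and 13 in KO, among them Ccnb1, Ccnb2, Cdk1, Mcm5, Mcm6, Gins2, Mki67 and Nusap1 in both. Libraries of the same replicate number were positively correlated across LPS in both genotypes. A fit with the number as a block within genotype, added after the data were seen, called 40 falls and 10 rises in WT. The block raised the calls over all 11984 genes too, to 4209 falls and 3947 rises in WT from 3567 and 3309. Among the members it added Ccnb1, Ccnb2, Cdk1, Mcm5 and Mcm6 to the falls and E2f8, Pcna and Tpx2 to the rises. Over the other fits on counts, which included leaving out each library in turn, 35 of the 42 calls in WT and 35 of 42 in KO were made every time, and the sign turned in 0. In WT the calls of Ccne1, Cdc25a, Cdk4, Rrm1, Cenpe and Top2a were lost in several of these fits and that of Ccnd1 in 1, without untreated replicate 2. In KO Cenpe, Rrm2, Tpx2, Cdk4 and Birc5 lost theirs in several, and Gins1 and Top2a in 1, without LPS replicate 2.

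Among the 8 cyclins and kinases of G1, LPS raised 3 and lowered 4 in each genotype. Ccnd2, which encodes cyclin D2, measured 10.6, 15.9 and 13.3 CPM in untreated WT, 17.2, 16.9 and 18.2 in untreated KO, 337, 302 and 287 in LPS-treated WT and 454, 497 and 466 in LPS-treated KO. The untreated and treated libraries were far apart in both genotypes, and the change was 4.53 ± 0.13 (adjusted p = 3.24e-12) in WT and 4.76 ± 0.13 (adjusted p = 1.53e-12) in KO, or 23.1-fold and 27.1-fold. Cdk6, a partner kinase of the D cyclins, was at 318, 335 and 328 CPM in untreated WT, 308, 261 and 263 in untreated KO, 670.1, 595 and 593 in LPS-treated WT and 601, 572 and 549 in LPS-treated KO. All treated libraries lay above all untreated ones, with changes of 0.92 ± 0.09 and 1.05 ± 0.09. Ccne1, cyclin E1, rose by 0.48 ± 0.17 in WT and 0.78 ± 0.17 in KO on the TMM scale, while on the RPKM scale it was at -0.03 in WT and 0.19 in KO and was not called. Its libraries were at 11.5, 19.3 and 15.9 CPM in untreated WT, 13.7, 12.2 and 16.8 in untreated KO, 22.9, 21.5 and 21.4 in LPS-treated WT and 26.4, 21.1 and 26.0 in LPS-treated KO, without overlap between treated and untreated ones. The related Ccne2 went the other way, from 34.9, 46.2 and 40.7 to 20.1, 18.2 and 21.9 CPM in WT, a change of -1.02 ± 0.12, and by -1.07 ± 0.12 in KO. Cdk2, the kinase of the E cyclins, fell by about as much (-0.94 ± 0.13 and -0.91 ± 0.13). Cdk4 had the highest RPKM of this group and measured 95.3, 119 and 121 CPM in untreated WT, 104, 105 and 111 in untreated KO, 81.2, 102 and 96.6 in LPS-treated WT and 86.7, 81.8 and 91.9 in LPS-treated KO. Its fall was small (-0.26 ± 0.11 in WT, -0.30 ± 0.11 in KO), and the WT ranges overlapped, with untreated replicate 1 under 2 of the treated libraries. Cyclin D3, Ccnd3, was not called in either genotype (-0.24 ± 0.16 and 0.11 ± 0.15).

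The 3 D cyclins thus did not move together, and cyclin D1 went down where cyclin D2 went up. Ccnd1 stood at 188, 378 and 357 CPM in untreated WT, 229.9, 202 and 219 in untreated KO, 134, 210.2 and 199.6 in LPS-treated WT and 144, 117 and 132 in LPS-treated KO, with changes of -0.76 ± 0.22 (adjusted p = 0.00889) and -0.73 ± 0.22 (adjusted p = 0.0111). WT replicate 1 was the lowest WT library in both conditions, and without LPS it lay below all KO libraries too. Per transcript length, Ccnd2 was at 0.0244 to 0.0372 of the Ccnd1 level in untreated WT and at 0.0492 to 0.0548 in untreated KO. After LPS the ratio was 0.944 to 1.66 in WT and 2.08 to 2.79 in KO. In each condition all KO libraries had a higher ratio than all WT libraries. A ratio within a library shows unequal change and not which of the genes moved, and the ratio was looked at after its values were seen.

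**Figure D2:**
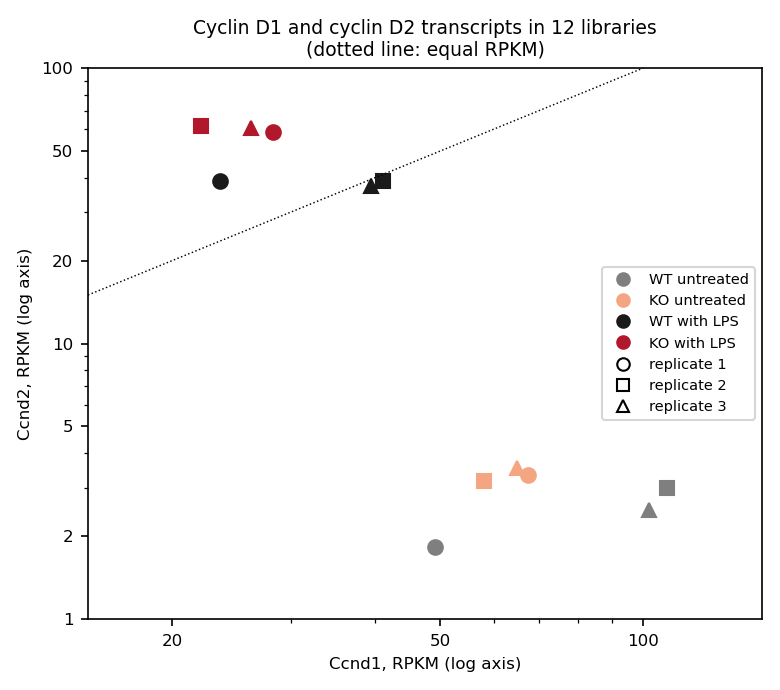
RPKM of Ccnd2 (y axis) against RPKM of Ccnd1 (x axis) in the 12 libraries, both axes logarithmic, with colour for the group and shape for the replicate number. The 6 untreated libraries lie far under the line of equal RPKM, the WT libraries with LPS lie near or above it (ratio 0.944 to 1.66), and the KO libraries with LPS lie above it (2.08 to 2.79).

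Of the 3 CDK inhibitors, Cdkn1a alone rose. It measured 266, 288 and 289 CPM in untreated WT, 245, 252 and 238 in untreated KO, 2062, 1662 and 1809 in LPS-treated WT and 1682, 1760 and 1791 in LPS-treated KO. All treated libraries lay far above the untreated ones, and the change was 2.71 ± 0.09 (adjusted p = 1.49e-11) in WT and 2.83 ± 0.09 (adjusted p = 9.2e-12) in KO. Cdkn2c, which encodes the INK4 inhibitor p18, fell (-0.95 ± 0.12 and -1.07 ± 0.12). Its WT libraries went from 45.5, 61.2 and 57.6 to 24.0, 31.9 and 28.9 CPM. Cdkn1b, the gene of p27, was not called, at 0.01 ± 0.26 in WT and -0.09 ± 0.26 in KO. WT replicate 1 held the highest Cdkn1b level of all 6 libraries in both conditions, at 63.0 CPM untreated and 55.1 CPM with LPS.

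Of the 4 E2F factors, the activator genes E2f1 and E2f2 and the repressor gene E2f7 fell in both genotypes. E2f2 measured 17.6, 27.3 and 27.3 CPM in untreated WT, 23.0, 23.2 and 23.0 in untreated KO, 3.45, 4.55 and 3.75 in LPS-treated WT and 2.56, 2.31 and 1.97 in LPS-treated KO. Its change was -2.61 ± 0.19 in WT and -3.33 ± 0.19 in KO, and with LPS the 3 KO libraries all lay under the 3 WT libraries. E2f7 was at 16.2, 20.0 and 17.1 CPM in untreated WT, 19.8, 13.9 and 15.6 in untreated KO, 3.30, 4.85 and 6.14 in LPS-treated WT and 4.33, 3.32 and 4.32 in LPS-treated KO, a change of -1.87 ± 0.20 and -2.04 ± 0.20. E2f1, which had the highest RPKM of the factors, was at 42.0, 45.4 and 46.4 CPM in untreated WT, 41.0, 35.3 and 41.1 in untreated KO, 26.1, 23.2 and 28.2 in LPS-treated WT and 21.4, 18.1 and 23.6 in LPS-treated KO. No treated library reached an untreated one of its genotype, and the changes were -0.79 ± 0.12 and -0.90 ± 0.12. E2f8, the close relative of E2f7, did not follow it and was at 0.33 ± 0.14 in WT and 0.09 ± 0.14 in KO, neither of which was called. With the block it was called higher in WT (0.31, adjusted p = 0.0125), and on the RPKM scale both changes were below 0.

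Cdca7 showed the largest fall of all members. Its levels were 11.5, 15.2 and 14.1 CPM in untreated WT, 11.2, 10.1 and 10.8 in untreated KO, 0.150, 0.202 and 0.228 in LPS-treated WT and 0.885, 0.0923 and 0.0940 in LPS-treated KO, and the last 2 groups rest on 5 and 12 reads in all. With so few reads the fold was taken from the pooled reads, as 70.0-fold lower in WT (exact 95% interval 29.8 to 216) and 29.3-fold lower in KO (16.6 to 57). These intervals cover counting error only. Of the 12 reads in KO, 10 came from replicate 1, and without that library the fold in KO was 115 (31.7 to 953) and the edgeR change was -6.69 in place of -4.83 ± 0.37. A count of 3 reads, taken as the floor, corresponds to 0.186 to 0.449 CPM on this scale, and 5 of the 6 treated libraries had fewer reads than that.

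**Figure D3:**
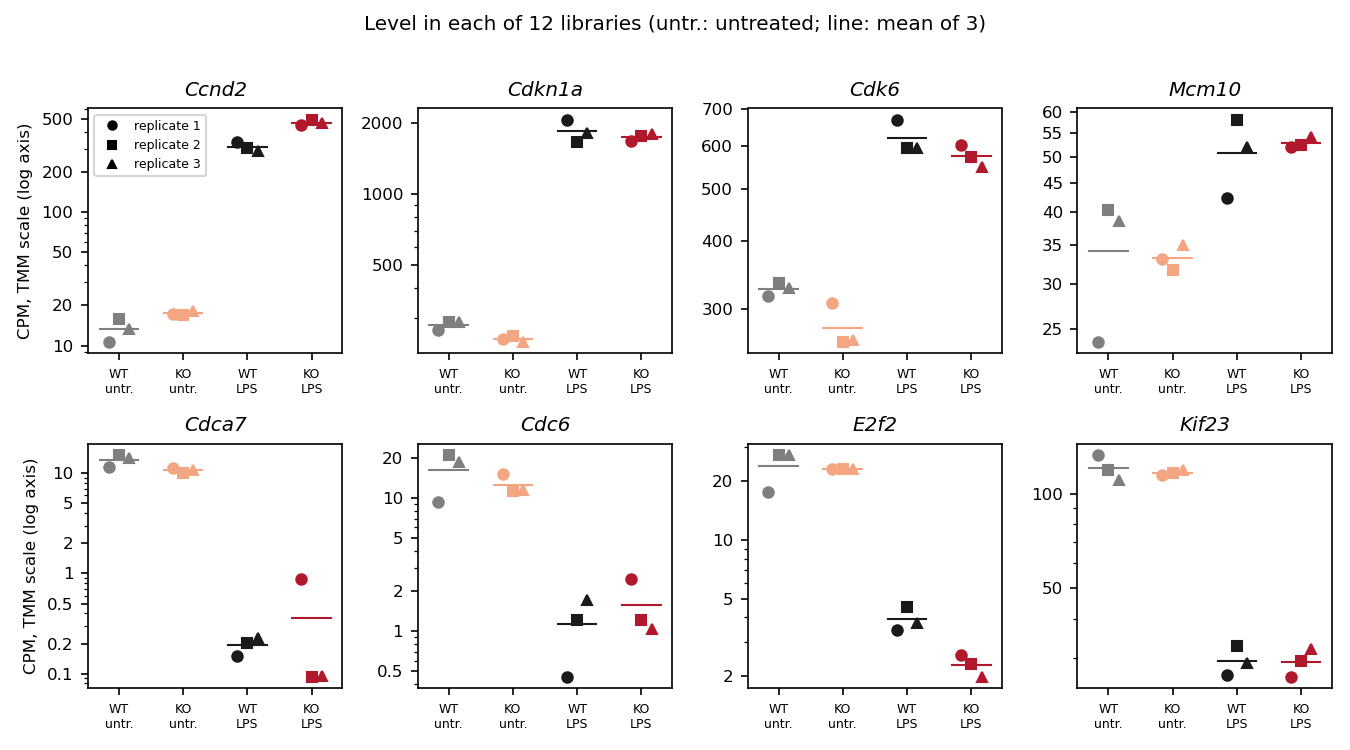
CPM (y axis, logarithmic, TMM scale) of 8 members in the 12 libraries, by group, with replicate 1 as circles, 2 as squares and 3 as triangles and the mean of 3 as a line. Ccnd2 and Cdkn1a are higher with LPS in both genotypes, Cdca7, Cdc6, E2f2 and Kif23 are lower, and WT replicate 1 is the lowest untreated library for Mcm10, Cdc6 and E2f2.

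The 13 genes of replication licensing and the fork did not all move the same way. Loading factors and 4 of 6 helicase subunits fell: 7 members fell in WT and 8 in KO, and Mcm10 alone rose. Cdc6, which loads the MCM helicase on origins, was at 9.29, 21.1 and 18.6 CPM in untreated WT, 15.0, 11.2 and 11.5 in untreated KO, 0.450, 1.21 and 1.71 in LPS-treated WT and 2.48, 1.20 and 1.03 in LPS-treated KO. Pooled over a group the fall was 14.4-fold in WT (exact 95% interval 9.96 to 21.5, with 30 reads after LPS) and 8.0-fold in KO (6.02 to 10.8, with 52 reads), and the edgeR changes were -3.80 ± 0.41 and -2.99 ± 0.37. Cdt1, which acts with Cdc6, fell (-0.90 ± 0.23 and -0.98 ± 0.23). Of the 6 subunit genes of the helicase, Mcm2 (-1.24 ± 0.26 in WT and -1.07 ± 0.25 in KO), Mcm7 (-0.91 ± 0.18 and -0.87 ± 0.18), Mcm3 (-0.87 ± 0.18 and -0.83 ± 0.18) and Mcm4 (-0.64 ± 0.17 and -0.62 ± 0.17) fell in both. Mcm5 (-0.61 ± 0.27 and -0.47 ± 0.26) and Mcm6 (-0.14 ± 0.17 and -0.08 ± 0.17) were not called. On the RPKM scale both were called lower in both genotypes, at -1.13 and -1.03 for Mcm5 and at -0.67 and -0.66 for Mcm6, and with the block Mcm5 (-0.62, adjusted p = 8.06e-09) and Mcm6 (-0.13, adjusted p = 0.043) were called in WT. Cdc45, which activates the helicase with the GINS proteins, fell (-1.15 ± 0.19 and -0.98 ± 0.19). Of the GINS genes, Gins2 was not called and Gins1 was called in KO alone (-0.63 ± 0.20, with -0.29 ± 0.20 in WT). The least read transcript of Gins1 held 43.5% as many reads as the most read, so its value depends on the transcript chosen more than those of the others.

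Pcna, the sliding clamp of DNA polymerases and the replication gene with the highest RPKM, was called in neither genotype. It measured 138, 217 and 208 CPM in untreated WT, 170.4, 160.1 and 165 in untreated KO, 161, 241 and 226 in LPS-treated WT and 208, 200.1 and 202 in LPS-treated KO, and its changes of 0.16 ± 0.16 (adjusted p = 0.422) and 0.30 ± 0.16 (adjusted p = 0.12) turned sign on the RPKM scale. With the block Pcna was called higher in WT (0.16, adjusted p = 0.0113). Mcm10, an initiation factor at the fork, measured 23.7, 40.3 and 38.5 CPM in untreated WT, 33.1, 31.7 and 35.1 in untreated KO, 42.4, 58.1 and 52.1 in LPS-treated WT and 52.1, 52.5 and 54.2 in LPS-treated KO. The treated libraries lay above the untreated ones in both genotypes on the TMM scale, with 0.57 ± 0.16 (adjusted p = 0.00867) in WT and 0.67 ± 0.16 (adjusted p = 0.00265) in KO. On the RPKM scale its change was 0.04 and 0.08 and was not called. The ribonucleotide reductase genes supply deoxynucleotides. Rrm2, the subunit gene tied to S phase, fell (-0.90 ± 0.24 in WT and -0.70 ± 0.24 in KO). Rrm1 was at 162, 218 and 205 CPM in untreated WT, 187, 177 and 189 in untreated KO, 139, 177 and 163 in LPS-treated WT and 161, 141 and 168 in LPS-treated KO, with a small change (-0.29 ± 0.12, adjusted p = 0.0496 in WT, -0.24 ± 0.12, adjusted p = 0.0961 in KO). Tyms, thymidylate synthase, was not called (-0.11 ± 0.22 and 0.12 ± 0.21).

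In the group of S and M phase cyclins, CDK1 and its activators, 5 of 8 fell in WT, 4 in KO, and 0 rose. Cdc25b, a phosphatase that activates CDK1, changed by -1.54 ± 0.16 and -1.56 ± 0.16. Cdc20, the activator of the anaphase promoting complex, went from 18.6, 42.5 and 34.2 to 7.94, 13.5 and 12.4 CPM in WT and from 36.6, 31.2 and 35.5 to 14.8, 15.0 and 13.8 CPM in KO. Its changes were -1.48 ± 0.25 and -1.25 ± 0.24. Ccna2, with the highest RPKM of the group, was at 155, 169.7 and 151 CPM in untreated WT, 152, 145 and 158 in untreated KO, 101, 110.5 and 110.0 in LPS-treated WT and 102, 99.1 and 113 in LPS-treated KO, with no overlap and changes of -0.57 ± 0.08 and -0.54 ± 0.08. Cdc25c also fell (-0.63 ± 0.18 and -0.73 ± 0.17), and Cdc25a was called in WT alone (-0.39 ± 0.15, adjusted p = 0.0396, with -0.12 ± 0.15, adjusted p = 0.511 in KO). Both B cyclins and Cdk1 itself were not called by the unpaired test: Ccnb1 was at -0.47 ± 0.29 and -0.30 ± 0.28, Ccnb2 at -0.19 ± 0.09 and -0.07 ± 0.09, and Cdk1 at -0.42 ± 0.20 and -0.31 ± 0.20. With the replicate number as a block within genotype all 3 were called lower in WT (Ccnb1 -0.49, adjusted p = 0.000171, Ccnb2 -0.19, adjusted p = 0.0177, and Cdk1 -0.42, adjusted p = 4.22e-06), and on the RPKM scale all 3 were called lower in both genotypes.

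Of the 17 genes of mitosis and chromosomes, 12 fell in each genotype. Kif23, a kinesin of the central spindle, fell most and measured 133, 119 and 111 CPM in untreated WT, 114, 116 and 119 in untreated KO, 26.4, 32.8 and 28.9 in LPS-treated WT and 26.0, 29.3 and 31.9 in LPS-treated KO. The groups were 4.10-fold apart in WT, with a log2 change of -2.04 ± 0.10 (adjusted p = 9.24e-10), and 4.01-fold in KO (-2.0 ± 0.10, adjusted p = 8.16e-10). The kinetochore gene Cenpf (-1.53 ± 0.12 and -1.65 ± 0.12), the checkpoint kinase gene Bub1b (-1.47 ± 0.10 and -1.53 ± 0.10) and the kinesin gene Kif20a (-1.23 ± 0.09 and -1.34 ± 0.09) followed. The Aurora kinase genes Aurka (-0.97 ± 0.16 and -0.89 ± 0.15) and Aurkb (-0.97 ± 0.24 and -0.80 ± 0.23) and the kinase gene Plk1 (-0.56 ± 0.09 and -0.81 ± 0.09) fell too. Prc1, Kif11, Bub1, Birc5 and Top2a fell as well, from -0.70 for Prc1 to -0.34 for Top2a in WT. Top2a, which untangles chromosomes and had the highest RPKM of the group, was at 329, 416 and 379 CPM in untreated WT, 393, 344 and 383 in untreated KO, 259, 333 and 298 in LPS-treated WT and 296, 268 and 314 in LPS-treated KO, with -0.34 ± 0.11 in WT and -0.35 ± 0.11 in KO. Mki67, often used as a marker of dividing cells, was not called (0.09 ± 0.14 and -0.01 ± 0.14), and was lower on the RPKM scale in both genotypes (-0.45 and -0.58). Its libraries were at 706, 552 and 489 CPM in untreated WT, 581, 481 and 457 in untreated KO, 736, 579 and 541 in LPS-treated WT and 496, 502 and 514 in LPS-treated KO. Mad2l1, a checkpoint gene (0.44 ± 0.07 and 0.29 ± 0.07), and Cenpe, a kinetochore kinesin (0.30 ± 0.11 and 0.28 ± 0.11), were called higher in both genotypes. Tpx2, a spindle assembly gene, was called higher in KO (0.26 ± 0.09). All 3 had a negative change on the RPKM scale, and there Cenpe and Tpx2 were called lower in both genotypes and Mad2l1 in KO. Nusap1 was not called.

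Members with the motif letters in their promoter had the lower medians after LPS. In WT the 12 members with E2F letters had a median change of -0.91, from -6.04 to -0.14, and 9 of them fell, while the 34 without had a median of -0.40 and 19 fell. For CHR letters the medians were -0.83 in the 16 members with them, of which 12 fell, and -0.42 in the 30 without, of which 16 fell. In KO the medians with and without were -0.89 and -0.32 for E2F and -0.85 and -0.30 for CHR. Over all tested genes with a window, the medians in WT were -0.12 with and -0.05 without E2F letters, and -0.08 and -0.04 for CHR. These are descriptions of the windows at hand, and 11 members, Ccnd1 and Ccnd2 among them, had none.

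Most genes of 5 further lists were lower after LPS too, but not in every list. Of 150 tested genes in them, 94 fell in WT (62.7%, against 29.8% of all genes) and 18 rose (12.0%, against 27.6%). In KO 88 fell (58.7%, against 30.9%) and 20 rose (13.3%, against 30.3%). Genes of the spindle, kinetochore and cytokinesis fell in 42 of 54 in WT (77.8%) and 40 in KO (74.1%). Replication and fork repair genes fell in 29 of 44 (65.9%) and 25 (56.8%). The control genes around RB, E2F and MuvB counted 10 falls (55.6%) and 4 rises among 18 in WT. Further CDKs, cyclins and inhibitors counted 6 falls (35.3%) and 3 rises among 17 in WT. In KO 5 of these 17 fell (29.4%), so their falls were near the share of all genes. Damage checkpoint and p53 target genes were divided, with 7 lower and 8 higher of 17 in WT and 7 and 9 in KO. Their median change was above 0, at 0.30 in WT and 0.32 in KO. The lowest p-values among the falls were those of Sesn1, a p53 target (-4.56 ± 0.19 in WT and -4.98 ± 0.20 in KO), the growth regulator Myc (-2.58 ± 0.12 and -2.98 ± 0.13), Cdca2 (-2.25 ± 0.13 and -2.18 ± 0.12) and the checkpoint kinase gene Chek2 (-1.83 ± 0.11 and -2.15 ± 0.11). Among the rises they were the stress gene Gadd45b (3.53 ± 0.09 and 3.62 ± 0.09), the atypical cyclin gene Ccng2 (2.47 ± 0.11 and 2.27 ± 0.11), the securin gene Pttg1 (2.19 ± 0.14 and 1.94 ± 0.13), and Atm in WT (1.48 ± 0.11) and E2f5 in KO (1.34 ± 0.10). All 9 of these kept their direction on the RPKM scale and were called there. Stem and progenitor markers (Kit, Cd34, Flt3 and Gata2, 0 of 4 without a read) summed to 16 to 27.6 CPM in untreated libraries and to 7.49 to 16.8 CPM with LPS, and their part in the falls was not tested.

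Without LPS, no member differed between KO and WT by the test. The call rate over all 11622 genes was 0.0% as well, with 841 genes at an unadjusted p under 0.05 and 49 genes called by DESeq2, of which 0 were members. The 3 members with the smallest p were Ccnd2 at 0.41 ± 0.15 (adjusted p = 0.598), Cdca7 at -0.33 ± 0.14 (adjusted p = 0.661) and Cdkn1a at -0.18 ± 0.07 (adjusted p = 0.672), with the library values given above. For these 3 the KO and WT libraries did not overlap, and the same held for Cdk6 and E2f1, which were lower in KO. That is 1 of 57 members without overlap on the higher side (1.75%, against 6.76% of all genes) and 4 on the lower side (7.02%, against 8.48%). By role, all 13 replication genes had estimates below 0 on the TMM scale, with a median of -0.16. On the RPKM scale, rounded to 2 decimals, 9 of 13 were below 0, 2 at 0 and 2 above, with a median of -0.08. The 17 mitosis genes were split 9 to 8 around a median of 0.00 on the TMM scale. On the RPKM scale, rounded alike, 13 of them were above 0, 1 at 0 and 3 below, with a median of 0.06. The median of all 11622 genes was 0.052 on that scale and -0.004 on the TMM scale.

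With LPS, Ccnd2 was the 1 of 56 tested members that differed between the genotypes. Its KO libraries (454, 497 and 466 CPM) all lay above its WT libraries (337, 302 and 287 CPM), a change of 0.61 ± 0.09 (adjusted p = 0.00874), or 1.52-fold (95% interval of the log2 change 0.43 to 0.78). Over all genes 1.13% were called, 1.0% higher and 0.124% lower. The call was lost in fits without WT replicate 3 (adjusted p = 0.103), KO replicate 2 (0.0571) or KO replicate 3 (0.0749), with log2 changes of 0.56, 0.57 and 0.61, and with the replicate number as a block (0.61, adjusted p = 0.0519). Next by p stood Ccnd3 (0.40 ± 0.11, adjusted p = 0.133), E2f2 (-0.80 ± 0.23, adjusted p = 0.14) and E2f8 (-0.42 ± 0.13, adjusted p = 0.18), which missed the threshold although their groups did not overlap. Groups were apart for 3 members on the higher side (Ccnd2, Ccnd3 and Cdc20, 5.36%, against 11.1% of all genes) and for 6 on the lower side (Ccne2, E2f2, E2f8, Gins1, Mki67 and Mad2l1, 10.7%, against 9.17%). Cdca7 had too few reads to be tested here.

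No member was called as responding differently to LPS in the 2 genotypes. The interaction called 0 of 57 members and 0.0% of 11984 genes, with 288 genes at an unadjusted p under 0.05 and 0 called by DESeq2. The smallest p belonged to E2f2, whose log2 change was further from 0 in KO, with a difference of -0.72 ± 0.28 (95% interval -1.27 to -0.18), to Plk1 (-0.25 ± 0.13, -0.51 to 0.01) and to Ccnd3 (0.34 ± 0.22, -0.09 to 0.77), each with an adjusted p of 1.0. For Ccnd2 the difference of the responses was 0.23 ± 0.16 (-0.09 to 0.55). The Plk1 libraries were at 46.1, 50.9 and 45.3 CPM in untreated WT, 52.6, 47.9 and 52.2 in untreated KO, 33.1, 34.0 and 29.4 in LPS-treated WT and 28.0, 27.7 and 31.4 in LPS-treated KO, and those of Ccnd3 at 16.4, 27.2 and 22.8 CPM in untreated WT, 21.6, 22.2 and 26.0 in untreated KO, 18.3, 21.0 and 17.3 in LPS-treated WT and 24.7, 25.9 and 24.7 in LPS-treated KO.

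WT replicate 1 lay at an end of the range for many genes of any kind, and for replication genes it lay at the low end. Untreated, this library was below all 5 other libraries for 33.6% and above them for 32.6% of all genes. Among the 57 members it was below for 33 (57.9%) and above for 6, and those below included 12 of 13 replication genes and 3 of 3 nucleotide genes. For mitosis it was lowest in 6 of 17 and highest in 5. The median distance to its 2 mates was -0.73 on the log2 scale for replication and 0.03 for mitosis. With LPS it was lowest for 23 of 57 members (40.4%, against 29.5% of all genes) and highest for 9 (15.8%, against 28.3%), the former including 11 of 13 replication genes, and the medians were -0.58 and 0.02. Ccnd1 differed from its mates by -0.97 untreated. For example, Mcm2 was at 38.8, 84.3 and 77.2 CPM in untreated WT and at 58.0, 51.0 and 56.4 CPM in untreated KO, so the KO libraries lay between WT replicate 1 and its mates. This library also had the smallest total count of its group, 8.98 M untreated and 8.64 M with LPS. In each condition it had the lowest sum of stem and progenitor markers (16 and 7.49 CPM). It also had the highest sum of macrophage markers, Lyz2 included (13100 and 14900 CPM). The part of these markers in the result was not tested.

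**Figure D4:**
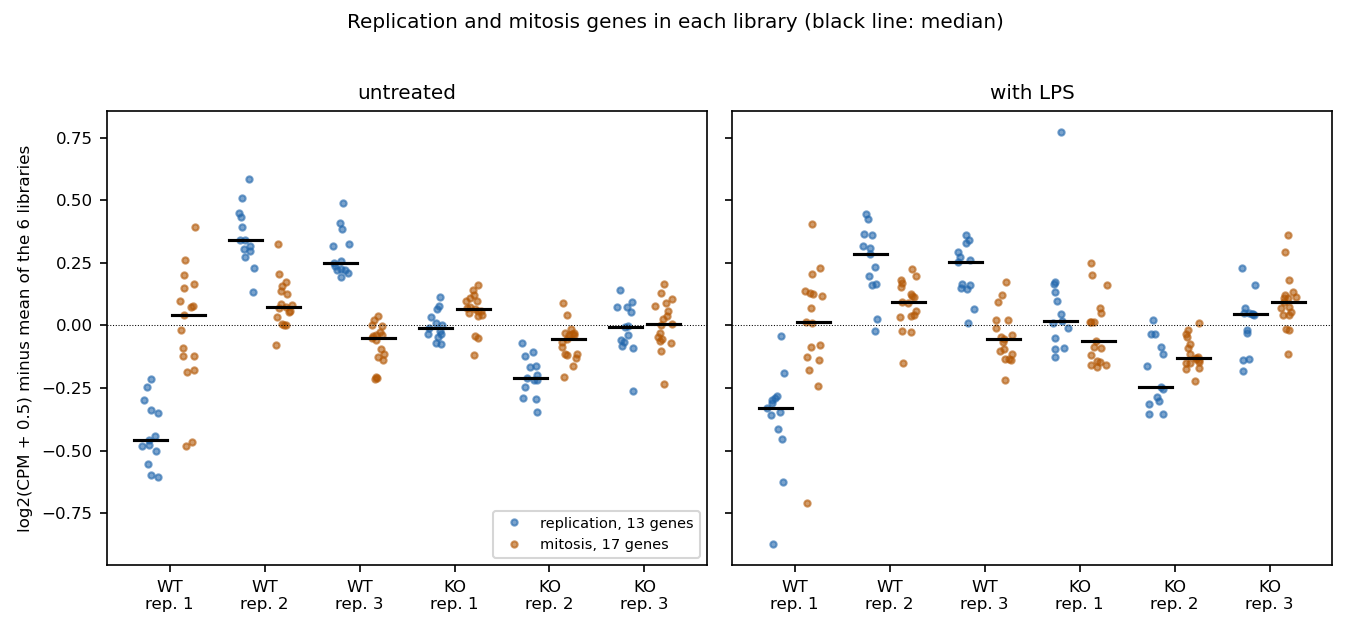
Log2(CPM + 0.5) of each of 13 replication genes (blue) and 17 mitosis genes (brown) minus the gene's mean over the 6 libraries of a condition (y axis), for each library (x axis), with the median as a black line. In WT replicate 1 the replication genes lie low and the mitosis genes around 0 in both conditions, and WT replicates 2 and 3 have the highest replication medians.

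The genotype estimates depended on which library was left out, of WT or of KO. Without KO replicate 2, member estimates were above 0 for 24 and below for 33 untreated, and for 29 and 27 with LPS. Without KO replicate 1 or 3 they were above 0 for 15 and below for 42 untreated, and for 16 and 40 with LPS. All LPS libraries together gave 18 above and 38 below. Without WT replicate 2, untreated estimates of the members were above 0 for 29 and below for 28, with LPS for 28 and 28, and 0 members were called untreated, compared with 18 above and 39 below over all 6 untreated libraries. WT replicate 1 was singled out for its low replication genes, and leaving it out raises the WT mean of those genes, so the following values describe the remaining libraries and are no test of the genotype. Without WT replicate 1, 12 members were lower in untreated KO and 0 higher, where 2.64% of 11816 genes were called lower and 3.7% higher. They were Ccnd1 (-0.74 ± 0.07), Cdc25a (-0.52 ± 0.09), Cdkn1a (-0.21 ± 0.06), Cdca7 (-0.43 ± 0.12) and 8 of 13 replication genes: Cdc6 (-0.63 ± 0.13), Cdt1 (-0.57 ± 0.09), Mcm2 (-0.52 ± 0.07), Mcm3 (-0.36 ± 0.08), Mcm4 (-0.31 ± 0.07), Mcm5 (-0.41 ± 0.10), Mcm6 (-0.37 ± 0.07) and Pcna (-0.34 ± 0.06). Of the 17 mitosis genes 0 were called, with a median of -0.01. Among the further lists, 7 of 44 replication and fork repair genes were lower, such as Pold1 (-0.56 ± 0.09) and Lig1 (-0.36 ± 0.08), as was Myc (-0.38 ± 0.08), and 0 of 54 spindle genes. Of the 150 genes in these lists 5 were higher, the cyclin gene Ccng2 (0.35 ± 0.09) and 4 of 17 damage checkpoint and p53 target genes, Gadd45a (0.62 ± 0.09), Btg2 (0.41 ± 0.10), Sesn1 (0.34 ± 0.08) and Btg1 (0.29 ± 0.07). Of the same 17 genes 1 was lower, and their median change was -0.04. With LPS and without this library, Ccnd2 was higher (0.67 ± 0.07) and 4 members were lower, Ccnd1 (-0.65 ± 0.08), Cdt1 (-0.60 ± 0.11), Mcm3 (-0.36 ± 0.10) and Mcm6 (-0.32 ± 0.07), against 3.13% of genes higher and 1.62% lower. With 2 WT libraries left, these values compare WT replicates 2 and 3 with 3 KO libraries.

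**Figure D5:**
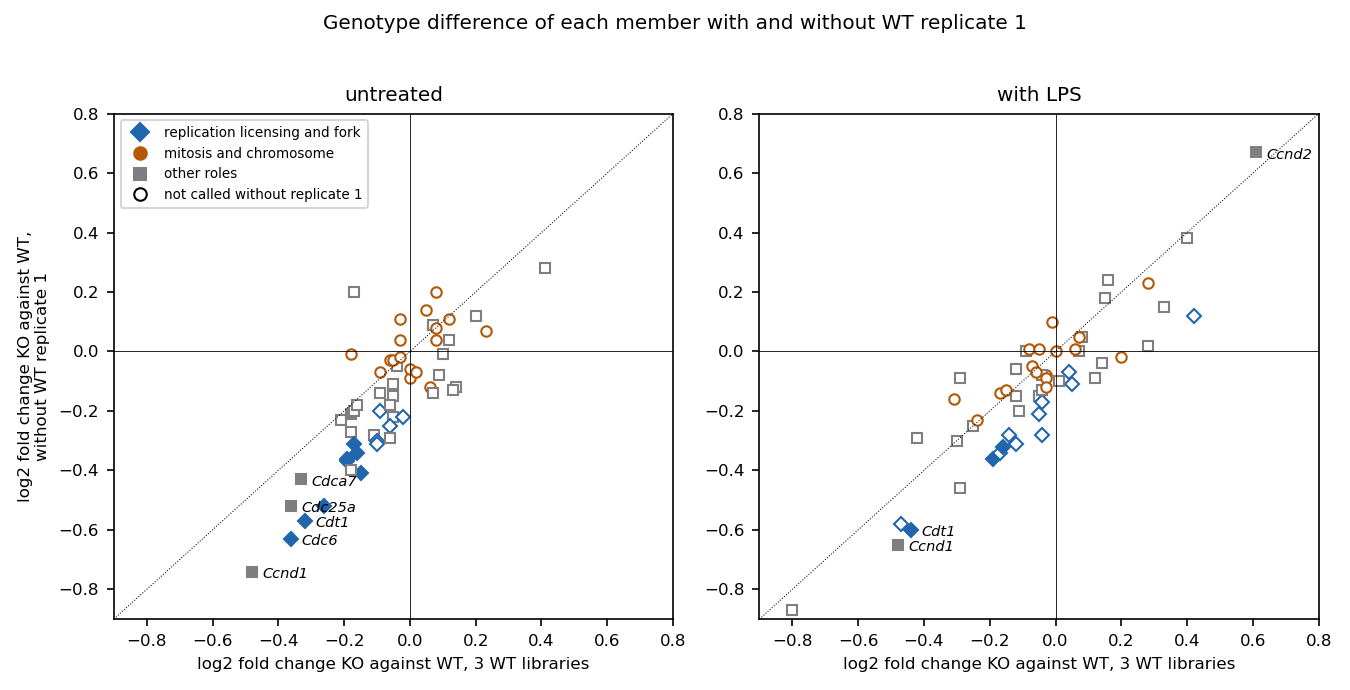
Log2 fold change of KO against WT for each member without WT replicate 1 (y axis) against the same with 3 WT libraries (x axis), untreated on the left and with LPS on the right, with filled symbols for genes called without replicate 1 and the dotted line for equal values. Replication genes (blue) lie below the line, mitosis genes (brown) stay around 0 untreated, and Ccnd2 with LPS is at 0.61 and 0.67.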

How the data were processed

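Poly(A) RNA of 12 macrophage cultures was sequenced single-end, per the labels' protocols. The deposited read counts per RefSeq transcript are whole numbers and not normalized, per the file headers and values, and the reads were processed with SAMtools 1.3.1 and STAR 2.5.2b against mm10, per the submitters' processing notes. No source used here gives the counting tool or its strand setting. The authors' RPKM values divide those counts by transcript length and by library size, as deposited, and served as an alternative. The untreated and LPS libraries came in separate tables. Reads shared by isoforms are counted once for each, so 1 transcript stood for each gene, that with the most reads in all libraries. Of the members, 22 had several transcripts, the lowest holding a median of 99.2% of the highest. Unnamed transcripts (117 of 35745, 0.259% to 0.738% of a library) were left out.

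Genes passing edgeR's filterByExpr were scaled by TMM and tested with edgeR's quasi-likelihood F test, robust, with Benjamini-Hochberg adjustment at 0.05 (R 4.3.3 with edgeR 4.0.16, and as alternatives DESeq2 1.42.0 and limma 3.58.1). Every adjusted p in the text is from this test unless another tool is named. Genotypes were compared on the 6 libraries of a condition, LPS responses and the interaction on all 12 as 4 groups. Standard errors are the log2 change over the square root of F. The 95% intervals of log2 changes take these errors as normal. With so few libraries they are narrower than the F test implies, and can leave out 0 where its unadjusted p is above 0.05. No label ties a replicate to 1 animal, so p-values measure the spread between these cultures. The main LPS tests did not pair libraries by replicate number. Across LPS, correlations of deviations between libraries of the same number were 0.548, 0.417 and 0.238 in WT and 0.139, 0.212 and 0.0912 in KO. Between different numbers they ran from -0.475 to 0.315 in WT and from -0.146 to 0.0251 in KO. The 0.315 was that of untreated WT replicate 3 with LPS replicate 2, above its value with LPS replicate 3.

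Shown by library were members called between genotypes or in the interaction, or else the 3 with the smallest p, the member of each role with the highest RPKM, and the 4 called members with the largest fall and rise in each LPS response. Of the further lists, up to 4 called genes per direction were named by smallest p. The D cyclins, Cdkn2c, Ccne2, Cdc20, Mcm2 and Mki67 were added after their values were seen. The members and lists were chosen with earlier results of these data known. The scripts were tested on simulated data.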

Additional observations from a re-analysis of the deposited data

How the results depend on the processing

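Of the tests between genotypes, those without LPS moved most. DESeq2 called 49 genes there, a fit without the low count filter 9, and a fit of all 12 libraries 27, with 0 members in each. Leaving out replicate 1 of both genotypes gave 687 genes and 12 lower members. Over the fits without 1 library, lower members ran from 0 to 12 and genes from 0 to 749, both highest without WT replicate 1. With LPS, DESeq2 called 265 genes, the unfiltered fit 276, and the fit without replicate 1 of both genotypes 513 with 3 lower members. Without 1 library, higher members ran from 0 to 1, lower members from 0 to 4 and genes from 17 to 545. The interaction called 4 genes on the RPKM scale and 24 without WT replicate 1 in both conditions, with 0 members in each. The cause of these shifts was not tested.

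Replicate numbers did not pair WT with KO (correlations -0.0259, -0.187 and 0.179 untreated, -0.106, -0.0658 and 0.0304 with LPS). With the replicate block, the LPS genotype comparison called 47 genes and 0 members higher, and Ccnd2 kept 0.61 (adjusted p = 0.0519). A replicate block within genotype, added after seeing the data, gave 10 rises and 40 falls among members in WT, and 9 and 38 in KO. Over all 11984 genes it gave 3947 rises and 4209 falls in WT, where the main fit gave 3309 and 3567. In KO it gave 4348 and 4353, where the main fit gave 3633 and 3700. Among members in KO it added Ccnb1, Cdk1, Mcm5 and Rrm1 to the falls and Pcna to the rises.

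On the RPKM scale 3 members rose in each response, 47 fell in WT and 50 in KO, with medians of -1.08 in WT and -1.11 in KO, and the rises of Ccne1, Mad2l1, Cenpe and Mcm10 in WT and of Ccne1, Mcm10, Mad2l1, Tpx2 and Cenpe in KO were no longer called as rises (Mcm10 was at 0.04 in WT and Ccne1 at 0.19 in KO). Without 1 library, 5 to 6 members rose and 30 to 41 fell in WT, and 6 to 8 rose and 29 to 34 fell in KO. In each response 7 of the 42 member calls were lost in at least 1 fit on counts, and 0 turned sign. Depth limits Cdca7 and Cdc6 after LPS, where 3 reads are 0.186 to 0.449 CPM.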
